A study of Homo sapiens with 12 samples.

Results

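The matrix metalloproteinases (MMP), the secreted proteases of the ADAMTS family, the related ADAMTSL proteins and the tissue inhibitors of metalloproteinases (TIMP) were examined in uterine leiomyosarcoma (uLMS) cells. Genes were taken by symbol (MMP, ADAMTS or ADAMTSL followed by a number, and TIMP1 to TIMP4). The rule used no values, but it was chosen with earlier results of these data known. This gave 52 of the 60649 genes of the count table, made up of 24 MMP, 19 ADAMTS, 5 ADAMTSL and 4 TIMP genes. Of these, 7 had 0 counts in every library, which were MMP7, MMP20, MMP23A, MMP23B, MMP26, MMP27 and ADAMTS8. The filter on low counts left 39 of the 52 for testing, and the other 6 that were not tested were ADAMTS19, ADAMTS20, ADAMTSL2, MMP12, MMP21 and MMP28.

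MMPs are zinc-dependent enzymes that are made as inactive precursors and cut collagens, gelatin, proteoglycans and cell surface proteins. ADAMTS enzymes are secreted, and different classes of them cut proteoglycans, trim procollagen or act on von Willebrand factor, while ADAMTSL proteins share their binding domains but have no catalytic domain. TIMPs bind the active site of MMPs, and TIMP3 also blocks several ADAM and ADAMTS enzymes. In the myometrium and its tumors, these enzymes and inhibitors take part in the turnover of a collagen-rich matrix and in invasion.

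The data came from RNA sequencing of SK-UT-1B cells, derived from a primary tumor, and SK-LMS-1, derived from a metastasis, both established uLMS lines, in 12 libraries. Every library came from cells exposed for 72 h. SK-UT-1B was exposed to the solvent DMSO (libraries 4-1 and 4-2) or to MK-0752, gemcitabine and docetaxel together (libraries 3-1 and 3-3), referred to here as the combination. SK-LMS-1 was exposed to DMSO (set 2 with libraries 2-1 and 2-3, and set 4 with libraries 4-1 and 4-2), to MK-0752 alone (libraries 2-2 and 2-3) or to the combination (libraries 4-1 and 4-2). MK-0752 inhibits gamma secretase, the protease that releases the active part of Notch receptors. Gemcitabine is a nucleoside analog, and docetaxel stabilizes microtubules. MK-0752 was used at a lower concentration in the combination than alone, and the concentrations of the combination differed between the lines. Each line stands for 1 tumor. The labels do not say whether the 2 libraries of a group came from separate cultures, so p-values measure the spread between these libraries, which may be technical.

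The libraries held 25250057 to 40709885 counts. Between 54 and 845 genes of a group had 0 counts in one of its libraries and at least 50 in the other, and ADAMTS17, TIMP4, ADAMTS2, MMP9, ADAMTS13 and ADAMTS6 were each among them in at least 1 DMSO group. Levels are given as CPM, counts scaled to the size of the library by TMM, and levels of different genes are compared only as CPM per kb of exon. Among 10 smooth muscle markers, DES had 0 counts in all SK-LMS-1 libraries and MYOCD 0 in all SK-UT-1B libraries, and the mean of MYH11 in a group was at most 0.137 CPM. The 10 markers summed to 543 to 626 CPM in SK-LMS-1 and to 85.03 to 124 CPM in SK-UT-1B. The 8 epithelial markers summed to 170 to 266 CPM in SK-LMS-1 (CDH1 and KRT14 at 0) and to 0.292 to 1.14 CPM in SK-UT-1B (5 of 8 at 0), and the 8 fibroblast markers to 2127 to 3547 CPM and to 4444 to 4914 CPM. The 6 immune and 5 endothelial markers summed to at most 5.22 and 9.40 CPM in SK-LMS-1, and to at most 0.301 and 2.01 CPM in SK-UT-1B. In RNA from whole cultures, fewer cells of a type and less RNA per cell cannot be told apart.

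The lines first differed in how many of these genes they expressed. At least 1 count was found for 43 of the 52 genes over the 4 DMSO libraries of SK-LMS-1 and for 27 over the 2 DMSO libraries of SK-UT-1B. Over 2 libraries of SK-LMS-1, this number was 42 in set 2 and 36 in set 4. Of all 60649 genes, 41751 to 44518 had 0 counts in a DMSO library of SK-LMS-1 and 41514 to 43617 in one of SK-UT-1B. A level of at least 1 CPM in every DMSO library was reached by 25 genes in SK-LMS-1 and by 17 in SK-UT-1B, and a level of at least 10 CPM by 15 and 9. Within the SK-LMS-1 DMSO sets of 2 libraries, 30 genes reached 1 CPM in both libraries of set 2 and 26 in both of set 4. A level of 10 CPM was reached by 16 in set 2 and 17 in set 4. The shares of all genes that reached 1 or 10 CPM were not taken. After treatment, 29 genes reached 1 CPM in both libraries of the SK-LMS-1 combination, 28 after MK-0752 and 20 in the SK-UT-1B combination.

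**Figure D1:**
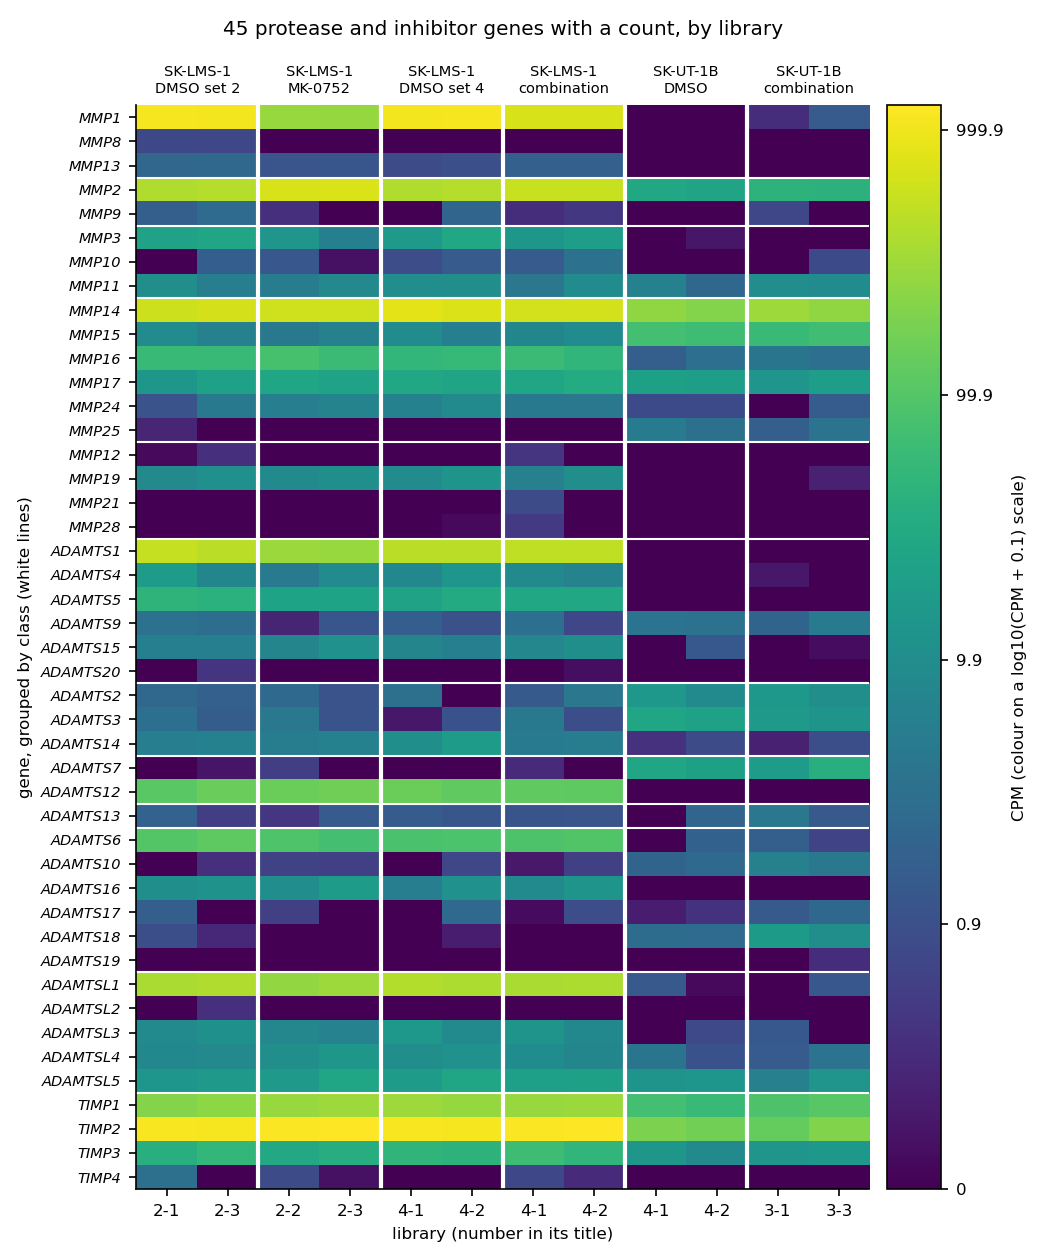
Levels of the 45 genes with at least 1 count, one line per gene and one column for each of the 12 libraries, as log10(CPM + 0.1), with genes ordered by class. MMP1, ADAMTS1 and ADAMTS12 are high in every SK-LMS-1 library and at or near 0 in SK-UT-1B.

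Per length, the leading transcript in SK-LMS-1 after DMSO was MMP1, the interstitial collagenase that makes the first cut in fibrillar collagen, at 393 ± 13.2 CPM per kb (SD, n = 4). TIMP1, the broad secreted inhibitor, reached 183 ± 29.3 CPM per kb and TIMP2, which inhibits MMPs and also takes part in the activation of pro-MMP2 by MMP14, reached 181 ± 3.94 CPM per kb (SD, n = 4). MMP14, the membrane-bound collagenase that activates pro-MMP2, stood at 156 ± 22.6 CPM per kb. By this length, the levels of TIMP1, TIMP2 and MMP14 did not differ beyond their spread between libraries, which leaves out the choice of length. The exons of TIMP2 cover 6209 bp and its longest transcript 3652 bp. By the length of the longest transcript, TIMP2 came before TIMP1. MMP2, the gelatinase, followed at 89.0 ± 4.22 and ADAMTS1, a protease that cuts the proteoglycans aggrecan and versican, at 66.8 ± 4.51 CPM per kb (SD, n = 4). ADAMTSL1, an extracellular glycoprotein without protease activity, had 29.5 ± 1.17 CPM per kb. The remaining leaders were ADAMTS12 (13.7 ± 1.66), MMP3 (12.5 ± 2.75) and ADAMTS6 (11.3 ± 1.89 CPM per kb, SD, n = 4), which overlapped in their spread.

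In SK-UT-1B after DMSO, MMP14 led with 51.2 ± 6.16 CPM per kb, TIMP1 followed with 46.1 ± 7.15 and TIMP2 with 28.8 ± 3.07 (SD, n = 2). MMP14 and TIMP1 did not differ beyond their spread. The membrane-bound MMP15, a close relative of MMP14, had 16.5 ± 1.39 CPM per kb and exceeded MMP2 at 5.56 ± 0.359 and MMP17 at 5.09 ± 0.279 CPM per kb (SD, n = 2). MMP17 is anchored to the membrane by a lipid instead of a transmembrane stretch. ADAMTSL5, ADAMTS3, ADAMTS7 and TIMP3 closed the leading 10 genes with 3.80 ± 0.175, 3.35 ± 0.346, 3.04 ± 0.393 and 2.54 ± 0.956 CPM per kb.

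Summed per length, the MMP transcripts of SK-LMS-1 reached 670 ± 24.1 CPM per kb after DMSO (SD, n = 4) and those of SK-UT-1B 80.3 ± 8.87 (SD, n = 2). The TIMP transcripts summed to 374 ± 27.5 and 77.4 ± 11.2 CPM per kb. The ratio of the summed MMP to the summed TIMP level was 1.84 ± 0.0458 in set 2 and 1.75 ± 0.108 in set 4 of SK-LMS-1, and 1.04 ± 0.0356 in SK-UT-1B (SD, n = 2 each). MMP1 alone made up 60.3% ± 3.01 of the MMP sum in set 2 and 57.2% ± 1.12 in set 4, and 0% in SK-UT-1B. These sums are transcript levels and carry no information on enzyme activity. They and their ratios rest on the union of exons as the length and were not taken with another length.

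**Figure D2:**
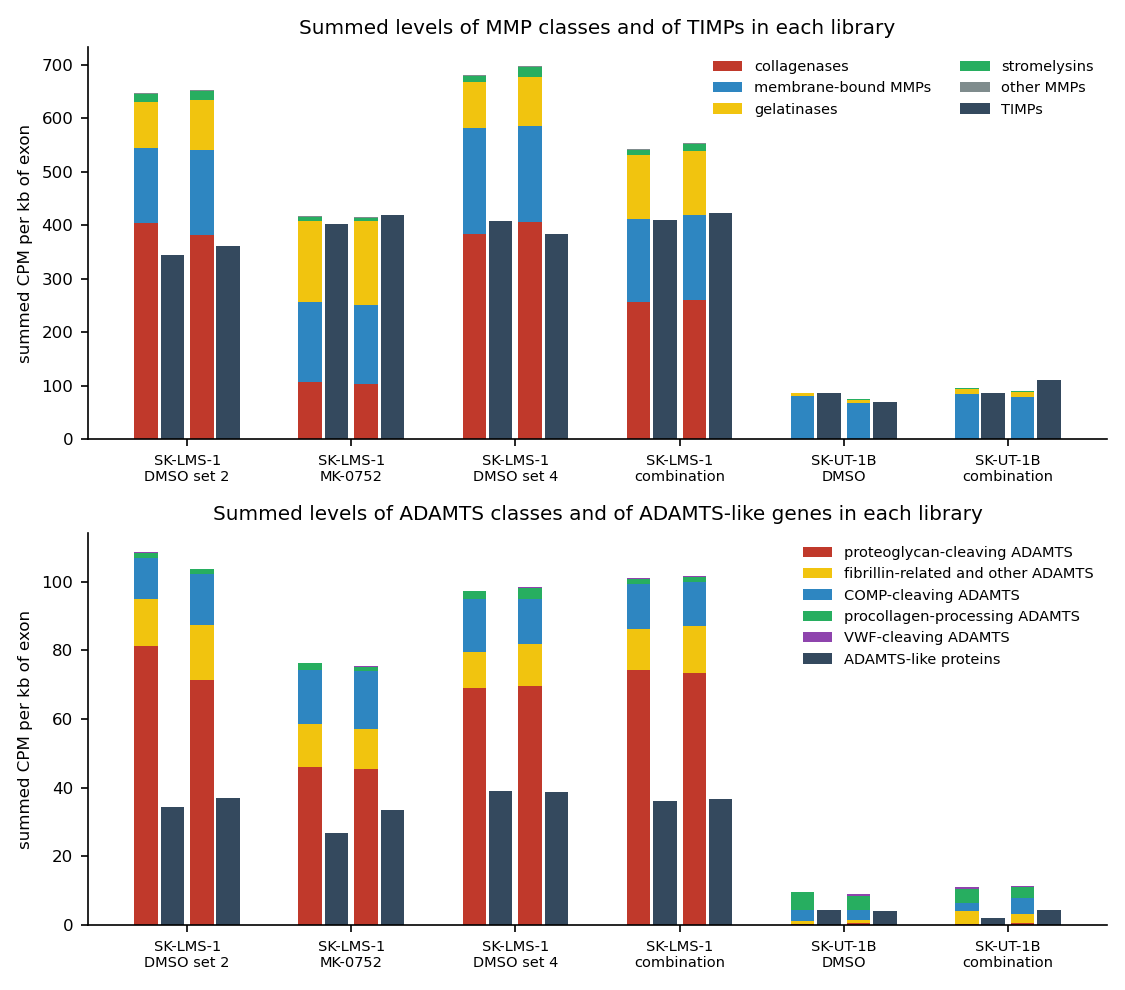
Summed levels in CPM per kb of exon in each of the 12 libraries, ordered by group. The MMP classes are stacked beside the TIMPs and the ADAMTS classes beside the ADAMTSL genes. The collagenases make up most of the MMP sum of SK-LMS-1 after DMSO, are below the gelatinases after MK-0752, and are at or near 0 in SK-UT-1B.

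The first comparison asked how the metastasis-derived line differed from the line of the primary tumor in the absence of drug. Most of the genes tested were higher in SK-LMS-1. Of the 39 tested genes, 26 passed the thresholds of a log2FC of at least 1 in size and an adjusted p under 0.05 (edgeR quasi-likelihood test), with 21 higher and 5 lower in SK-LMS-1. This is 66.7% of them, while 31.1% of all 21114 tested genes passed, 17% higher and 14.1% lower. Their median log2FC was 3.29, or 2.86 with the 12 genes that had 0 counts in SK-UT-1B set at their lower bound, against 0.00 over all genes. The lines differ in origin, genotype and culture history as well as in tumor stage, and these cannot be told apart.

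The collagenase MMP1 had 38570, 28711, 25922 and 42827 counts in the 4 DMSO libraries of SK-LMS-1, or 1105, 1040, 1052 and 1110 CPM, and 0 counts in both DMSO libraries of SK-UT-1B. The groups did not come near each other, and with 3 counts allowed over the SK-UT-1B group SK-LMS-1 exceeded it at least 24010-fold. Collagenase 3, MMP13, had 0.771 to 2.32 CPM in SK-LMS-1 and 0 in SK-UT-1B, which made it at least 34.1-fold higher, a call that was lost without either SK-UT-1B library. Where a library is left out, the other one of its group has no spread of its own and is assumed to vary like the other groups, as in every such fit. MMP8, the neutrophil collagenase, had 41 counts, all of them in set 2. Bounds and intervals on folds cover counting error only.

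The gelatinase MMP2 had 400, 440, 405 and 431 CPM in SK-LMS-1 and 27.4 and 24.96 CPM in SK-UT-1B, a log2FC of 4.002 (SE 0.15, adjusted p = 1.98e-14). Every SK-LMS-1 library lay far above both SK-UT-1B libraries. MMP9, the other gelatinase, was at 0 to 2.61 CPM in SK-LMS-1 and had 0 counts in SK-UT-1B. The stromelysin MMP3, which cuts many matrix proteins and activates pro-MMP1, had 22.8, 25.2, 16.5 and 28.5 CPM against 0 and 0.0796. With 2998 against 3 counts, its level was 529-fold higher in SK-LMS-1 (95% counting interval, 181 to 2568).

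The membrane-bound MMPs did not share a direction. MMP14 was higher in SK-LMS-1 (599, 679, 840 and 764 CPM against 257 and 216; log2FC 1.60, SE 0.13, adjusted p = 5.82e-09). MMP15 was lower (9.26, 5.87, 9.41 and 5.83 CPM against 73.8 and 65.5; log2FC -3.20, SE 0.26, adjusted p = 4.56e-09). MMP25, an MMP known from leukocytes, was lower as well, with 6 counts in 1 SK-LMS-1 library and none in the others, against 4.81 and 3.16 CPM in SK-UT-1B (log2FC -7.72, adjusted p = 0.00389). This fitted log2FC of MMP25 rests on 0 counts in set 4 and is no exact fold. Its mean levels were 0.0430 and 3.98 CPM. MMP17 overlapped between the lines at 14.8, 22.3, 28.8 and 24.8 against 21.1 and 19.6 CPM, with a log2FC of 0.13 (SE 0.27, adjusted p = 0.760) that turned to -0.069 without library 2-3 of SK-LMS-1. Of the 6 membrane-bound MMPs tested, 2 were higher, 2 lower and 2 not called, against 17% of all genes higher and 14.1% lower. MMP19, an MMP of many healthy tissues, had 8.43 to 12.9 CPM in SK-LMS-1 and 0 counts in SK-UT-1B, and was at least 236-fold higher.

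A cluster of 9 MMP genes on chromosome 11 (GRCh38, chr11:102520508-102955732) held transcripts of unequal level. MMP1 lies on the minus strand at chr11:102789401-102798160 and MMP3 at chr11:102835801-102843609, 37.6 kb apart. Over the 4 DMSO libraries of SK-LMS-1, MMP1 had 136030 counts and MMP3 2998, while MMP13 had 193, MMP10 117, MMP8 41 and MMP12 8, and MMP7, MMP20 and MMP27 had 0. Per length, these were 393 CPM per kb for MMP1, 12.5 for MMP3 and at most 0.543 for the others. The stromelysin MMP10, whose gene lies 8.77 kb from MMP1, had 0.537 CPM per kb in the same cells. WTAPP1, a pseudogene on the other strand that overlaps MMP1 and MMP3, had 0 to 80 counts in each SK-LMS-1 library. The strand setting of the counts was not stated, so reads of overlapping genes may have been assigned to either.

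**Figure D3:**
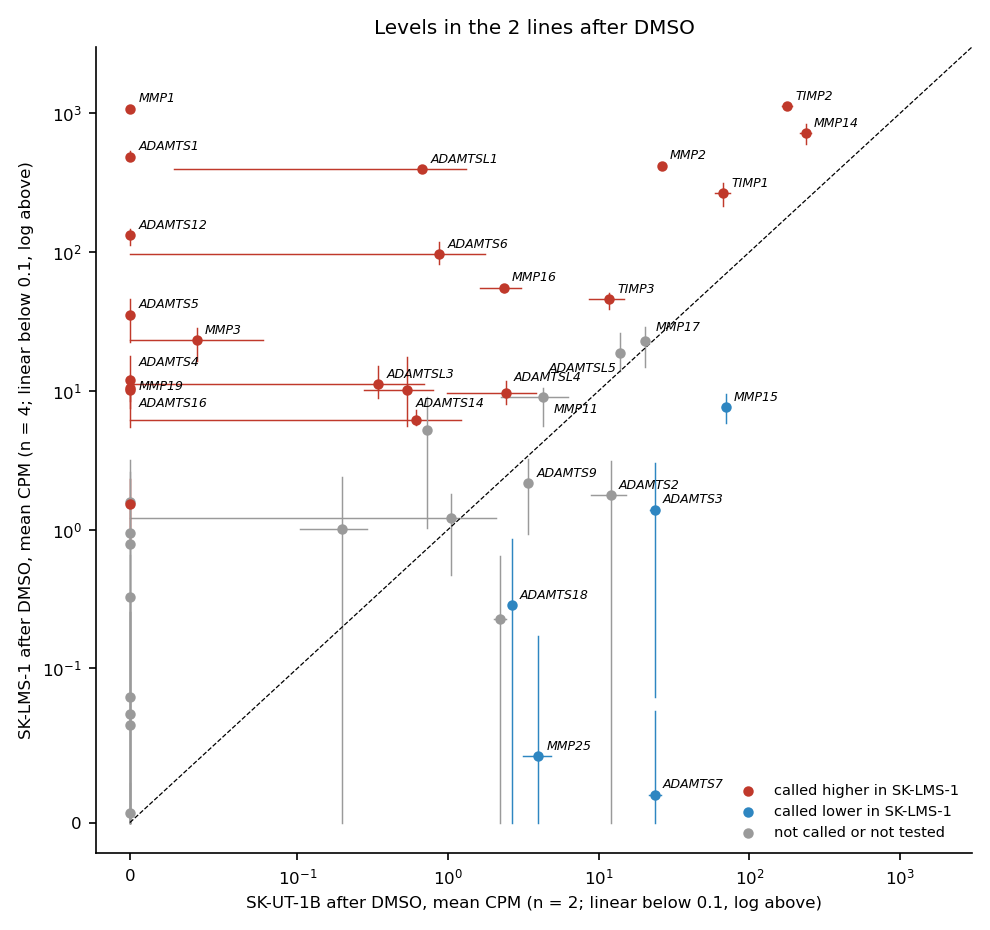
Mean CPM of each gene in the 4 SK-LMS-1 DMSO libraries (vertical) against the 2 SK-UT-1B DMSO libraries (horizontal), both on a symmetric log scale that is linear near 0, with bars from the lowest to the highest library. Red points are the 21 genes higher and blue points the 5 genes lower in SK-LMS-1 by the edgeR test, and several red points, MMP1 and ADAMTS1 among them, stand at 0 on the horizontal axis.

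Among the ADAMTS genes that cut proteoglycans, 4 of 5 tested were higher in SK-LMS-1, where 17% of all genes were higher. The call of the fourth, ADAMTS15 (5.67 to 7.30 CPM against 0 and 1.22), was lost without SK-UT-1B library 4-1 and with only the libraries compared. ADAMTS1 (chr21:26835755-26845409, minus strand) had 536, 477, 471 and 466 CPM in SK-LMS-1 and 0 counts in SK-UT-1B, and was at least 10850-fold higher. ADAMTS5, the main aggrecanase of mouse cartilage, had 46.0, 41.4, 22.5 and 31.9 CPM and ADAMTS4, a further aggrecanase, 7.46 to 17.8 CPM, both with 0 counts in SK-UT-1B, so that they were at least 799.6-fold and 278.5-fold higher. Among the procollagen-processing enzymes, ADAMTS14 was higher (5.53 to 17.6 CPM against 0.277 and 0.796) and ADAMTS3 was lower (0.0811 to 3.01 CPM against 25.2 and 21.8; log2FC -4.38, SE 0.79, adjusted p = 0.000515). ADAMTS2, the third of them, had 0 to 3.12 CPM against 15.2 and 8.83 CPM, without overlap, and its call depended on the fit. It was not called in the edgeR test used here but was called as lower in 4 of 6 alternatives with all libraries and in all 6 fits with 1 library left out.

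ADAMTS7 and ADAMTS12, related enzymes that cut cartilage oligomeric matrix protein, differed in opposite directions. ADAMTS12 had 112, 142, 147 and 125 CPM in SK-LMS-1 and 0 counts in SK-UT-1B, and was at least 2875-fold higher. ADAMTS7 had 2 counts in all 4 SK-LMS-1 libraries together and 25.7 and 21.4 CPM in SK-UT-1B, where it was 1463-fold higher (1550 against 2 counts; 95% counting interval, 404.5 to 12100). Pseudogene copies of ADAMTS7 exist, so its counts are uncertain. ADAMTS16, of the fibrillin-related and other enzymes, had 5.52 to 12.5 CPM in SK-LMS-1 against 0 and was at least 231-fold higher. ADAMTS6, of the same class, had 82.3 to 118 CPM in SK-LMS-1 against 0 and 1.75 CPM.

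Among the ADAMTSL genes, 3 of 4 tested were higher in SK-LMS-1, against 17% of all genes, and the call of ADAMTSL4 was lost without SK-UT-1B library 4-2. ADAMTSL1 had 380, 403, 414.5 and 386 CPM in SK-LMS-1 and 1.32 and 0.0265 CPM in SK-UT-1B, with a log2FC of 9.33 (SE 1.19, adjusted p = 0.000767). Its 38 counts in SK-UT-1B library 4-1 and 1 count in library 4-2 show a wide spread between these libraries. ADAMTSL5 was not called, with 13.98 to 25.99 against 13.3 and 14.2 CPM.

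Of the 4 inhibitors, TIMP1, TIMP2 and TIMP3 were also higher in SK-LMS-1, where 17% of all genes were higher. TIMP2 (chr17:78852977-78925387, minus strand) had 1154, 1099, 1128 and 1108 CPM against 192 and 165 CPM (log2FC 2.65, SE 0.16, adjusted p = 4.00e-11). TIMP1 (chrX:47582408-47586789, plus strand) had 214, 249, 312 and 283 CPM against 74.0 and 59.4 CPM (log2FC 1.98, SE 0.15, adjusted p = 2.09e-09). TIMP3, the inhibitor that is bound to the matrix, had 38.7, 51.0, 48.5 and 44.1 CPM against 14.8 and 8.57 CPM (log2FC 1.97, SE 0.26, adjusted p = 4.54e-06). In none of these genes did the lines overlap. TIMP4 was not called, with 110 counts in SK-LMS-1 library 2-1 and 0 in the 5 other DMSO libraries. SYN2, which overlaps TIMP4 on the other strand, had 348 to 570 counts in each SK-UT-1B library and at most 1 in SK-LMS-1, and CEP295NL, within TIMP2 on the same strand, had 0 to 28 counts.

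The promoters are shown for ADAMTS12 and ADAMTSL1, high in SK-LMS-1, and for MMP15 and ADAMTS7, high in SK-UT-1B, genes with an entry that were chosen after their values were seen. A RefSeq promoter (GRCh38.p14) was matched for 32 of the 52 genes, and the 20 without an entry were MMP1, MMP2, MMP3, MMP9, MMP12, MMP13, MMP16, MMP17, MMP19, MMP23A, MMP25, MMP28, ADAMTS1, ADAMTS4, ADAMTS5, ADAMTS8, ADAMTS9, ADAMTS15, ADAMTS16 and TIMP2. The sequences are the 250 bases before the start that RefSeq gives, 5′ to 3′ on the strand of the gene, for ADAMTS12 at chr5:33891991-33892240 (minus), ADAMTSL1 at chr9:18473903-18474152 (plus), MMP15 at chr16:58025504-58025753 (plus) and ADAMTS7 at chr15:78811465-78811714 (minus). The start in RefSeq is also the first base of the gene in GENCODE for MMP15 and ADAMTS7, but lies 29 bases inside the gene for ADAMTS12 and 568 kb inside it for ADAMTSL1, whose longest model begins further upstream. Capitals mark GGGCGG, the GC box, or its reverse complement CCGCCC.
ADAMTS12: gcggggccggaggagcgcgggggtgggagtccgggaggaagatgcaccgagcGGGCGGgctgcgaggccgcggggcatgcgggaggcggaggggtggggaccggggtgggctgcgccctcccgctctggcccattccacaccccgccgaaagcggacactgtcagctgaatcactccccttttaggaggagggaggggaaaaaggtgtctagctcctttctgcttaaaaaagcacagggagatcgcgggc
ADAMTSL1: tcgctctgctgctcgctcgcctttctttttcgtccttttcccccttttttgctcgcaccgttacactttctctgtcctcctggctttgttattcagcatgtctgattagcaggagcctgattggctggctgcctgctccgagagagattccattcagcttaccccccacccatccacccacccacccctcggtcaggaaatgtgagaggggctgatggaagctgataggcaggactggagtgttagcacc
MMP15: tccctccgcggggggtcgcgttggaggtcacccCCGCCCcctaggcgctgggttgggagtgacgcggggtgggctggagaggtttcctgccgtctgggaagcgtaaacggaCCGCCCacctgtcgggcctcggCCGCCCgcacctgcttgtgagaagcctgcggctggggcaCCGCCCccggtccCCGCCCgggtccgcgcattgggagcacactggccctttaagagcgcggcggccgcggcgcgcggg
ADAMTS7: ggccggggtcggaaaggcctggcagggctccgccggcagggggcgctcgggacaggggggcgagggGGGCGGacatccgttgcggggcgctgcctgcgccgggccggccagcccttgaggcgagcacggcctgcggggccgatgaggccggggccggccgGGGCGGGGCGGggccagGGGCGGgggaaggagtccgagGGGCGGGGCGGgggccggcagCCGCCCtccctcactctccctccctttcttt
The GC box had 1 match in ADAMTS12, 0 in ADAMTSL1, 5 in MMP15 and 7 in ADAMTS7, where some matches overlap by 1 base. The windows held 21, 8, 31 and 29 CpG dinucleotides and 68.4%, 54.8%, 74.8% and 80.8% G or C, against medians of 11 and 58% over all 35116 promoters of the table. Searched on both strands, GGGCGG was present in 42.6% of all promoters and in 23 of the 32 found here, and TATAAA in 10.7% of all and in 8 of the 32, among them MMP7, MMP8, MMP10 and MMP20 of the chromosome 11 cluster. TGAGTCA, a binding motif of AP-1, was present in 4.2% of all promoters and among the 32 in MMP7, and GTGGGAA, a motif of the Notch effector RBPJ, in 5.43% of all and among the 32 in ADAMTSL2. A match is a description of the letters and not a site of binding.

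The lines were then compared after the combination, whose concentrations differed between them. Again most of the tested genes were higher in SK-LMS-1, with 21 higher and 4 lower of 39, or 64.1%, against 25.4% of all genes (15.6% higher and 9.88% lower). Of the 26 genes called after DMSO, 24 (92.3%) were among the 25 called after the combination, of which they made up 96%. Both comparisons set the same lines against each other, and the same share over all called genes was not taken. This overlap is therefore not a trait of these genes in particular. The median log2FC was 2.59, also with the 9 genes at 0 counts set at their bounds, against 0.02 over all genes. MMP2 was higher in SK-LMS-1 with a log2FC of 3.69 (adjusted p = 1.24e-13) and MMP14 with 1.22 (adjusted p = 1.09e-06), and MMP15 lower with -2.93 (adjusted p = 7.05e-07). ADAMTS1 was at least 10810-fold and ADAMTS12 at least 2654-fold higher. ADAMTS18 had 0 counts in the SK-LMS-1 combination libraries and 17.2 and 10.6 CPM in those of SK-UT-1B, where it was at least 275.9-fold higher. After DMSO it had 0 to 0.860 CPM in SK-LMS-1 and 2.67 and 2.63 CPM in SK-UT-1B (log2FC -3.88, SE 1.01, adjusted p = 0.00441), a call that was lost with only the libraries compared (adjusted p = 0.0846). ADAMTS3 was not called here (log2FC -2.46, adjusted p = 0.0663) but was called as lower in 3 of 6 alternatives with all libraries and in 3 of 4 fits with 1 left out, at 4.36 and 0.862 against 15.8 and 13.1 CPM.

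The second comparison asked what the combination did in SK-UT-1B. The titles number its DMSO libraries as 4 and its combination libraries as 3, the labels do not say what this number marks, and it cannot be told apart from the treatment. None of the 39 genes was called by the edgeR test, while 0.559% of all genes were. At an unadjusted p under 0.05 there were 5 of the 39 (12.8%), against 10.5% of all genes, and DESeq2 called 1, MMP1, against 2.88% of the genes to which it gave an adjusted p. The median log2FC was 0.03 against 0.00 over all genes. MMP2 passed the adjusted p alone, as 0.715% of all genes did, with a size under the threshold. It had 27.4 and 24.96 CPM after DMSO and 44.1 and 42.55 CPM after the combination (log2FC 0.73, SE 0.14, adjusted p = 0.0135). The libraries of the groups were well apart. Over the 6 alternatives that kept every library the adjusted p of MMP2 lay between 1.56e-07 and 0.618, with 5 under 0.05, and it was 0.0775 without DMSO library 4-2. Of the 8 fibroblast markers, 1 passed the adjusted p in this comparison, COL1A1, with 21.84 and 18.81 CPM after DMSO and 13.12 and 12.56 CPM after the combination (log2FC -0.66, SE 0.14, adjusted p = 0.0293). The 8 markers summed to 4576 to 4746 CPM after DMSO and 4444 to 4914 CPM after the combination, with 2 of them at 0 in each group, and their part in the result was not tested.

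MMP1 had 0 counts in both SK-UT-1B DMSO libraries and 9 and 39 counts after the combination, or 0.246 and 1.38 CPM. The groups did not overlap, and 48 counts against the 3 allowed by a count of 0 made MMP1 at least 16.5-fold higher, with an adjusted p of 0.161 by edgeR that was under 0.05 in 3 of the 5 alternatives that kept every library (0.000687 to 0.165). It was called in all 4 fits with a library of the comparison left out. The higher of these libraries remained far below every SK-LMS-1 library. ADAMTS18, named after its values were seen, had 2.67 and 2.63 CPM after DMSO and 17.2 and 10.6 CPM after the combination. The groups did not overlap, but the gene was not called (log2FC 2.39, SE 1.18, adjusted p = 0.511) and was not called in any alternative, with the adjusted p between 0.203 and 0.568 over those that kept every library. TIMP1 had 74.0 and 59.4 CPM after DMSO and 89.9 and 108 CPM after the combination (log2FC 0.57, SE 0.16, adjusted p = 0.130), without overlap. Its adjusted p was under 0.05 in 2 of the 6 alternatives that kept every library (0.0229 to 0.635). TIMP2 overlapped, with 192 and 165 CPM against 135 and 205 CPM, and so did TIMP3, with 14.8 and 8.57 against 13.7 and 15.4 CPM. TIMP4 had 0 counts in all 4 libraries.

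The third comparison asked what MK-0752 alone did in SK-LMS-1, against DMSO set 2. None of the 39 genes was called by the edgeR test, while 0.251% of all genes were. Before adjustment, 7 of the 39 (17.9%) had a p under 0.05, against 6.41% of all genes, and DESeq2 called 2, MMP1 and ADAMTS18, against 1.09% of the genes to which it gave an adjusted p. The median log2FC was -0.33 against 0.00 over all genes.

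MMP1, the leading gene per length, had 1105 and 1040 CPM after DMSO and 292 and 283 CPM after MK-0752. Both MK-0752 libraries lay far below all 4 DMSO libraries of SK-LMS-1. The log2FC was -1.90 (SE 0.37, unadjusted p = 0.00155, adjusted p = 0.197 by edgeR), so the gene was not called. Over 13 alternatives the log2FC of MMP1 lay between -1.96 and -1.85. Over the 9 of them that kept every library, its adjusted p lay between 2.36e-15 and 0.199 and was under 0.05 in 5. It was 0.0419 by DESeq2, 0.0174 without the robust option of edgeR, 2.4e-15 with the 8 SK-LMS-1 libraries alone and 0.0963 against the 4 DMSO libraries pooled. The size of the shift was thus stable and its call was not. MMP3, the neighbor of MMP1, had 22.8 and 25.2 CPM after DMSO and 13.3 and 5.82 CPM after MK-0752 (log2FC -1.33, SE 0.50, adjusted p = 0.555), without overlap. Its log2FC was -0.85 without MK-0752 library 2-3 and -2.04 without library 2-2.

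MMP2 and ADAMTS1 passed the adjusted p with sizes under the fold threshold, 2 of 39 genes where 0.365% of all genes passed. MMP2 had 400 and 440 CPM after DMSO and 707 and 741 CPM after MK-0752 (log2FC 0.79, SE 0.14, adjusted p = 0.0106). ADAMTS1 had 536 and 477 CPM after DMSO and 306 and 293 CPM after MK-0752 (log2FC -0.76, SE 0.14, adjusted p = 0.0255). In both genes the MK-0752 libraries were also outside the range of all 4 DMSO libraries. With each library left out in turn, the adjusted p lay between 0.0259 and 0.216 for MMP2 and between 0.0177 and 0.291 for ADAMTS1. MMP2 lost its adjusted p without DMSO library 2-1 (0.216) or MK-0752 library 2-3 (0.0689), and ADAMTS1 without DMSO library 2-1 (0.291), MK-0752 library 2-2 (0.0790) or MK-0752 library 2-3 (0.159). Among the 8 fibroblast markers, 2 also passed the adjusted p after MK-0752 below the fold threshold. COL1A1, a chain of type I collagen, had 675.7 and 713.8 CPM after DMSO and 1278 and 1348 CPM after MK-0752 (log2FC 0.92, SE 0.13, adjusted p = 0.0021). COL1A2, its partner chain, had 1108 and 1181 against 1840 and 1837 CPM (log2FC 0.68, SE 0.13, adjusted p = 0.0203). The summed level of the 8 markers was 2127 to 2245 CPM in set 2 and 3540 to 3547 CPM after MK-0752, with no marker at 0. Without COL1A1 and COL1A2, the other 6 summed to 343.4 to 349.8 CPM and to 362.6 to 422.5 CPM, and none of them passed the adjusted p, with log2FC values from -0.23 for LUM to 1.09 for FAP. The median log2FC of the 8 was 0.13. The epithelial markers summed to 216.7 to 265.7 CPM in the 4 DMSO libraries of SK-LMS-1 and to 169.5 and 181.2 CPM after MK-0752, without overlap. None of the 5 tested passed the adjusted p, and KRT18, a keratin, had 103.4 and 143.8 CPM in set 2 and 64.34 and 72.27 CPM after MK-0752 (log2FC -0.86, adjusted p = 0.728). Of the other tested epithelial markers, KRT8 (log2FC -0.12) and KRT19 (log2FC -0.25) were slightly lower. CLDN4 (log2FC 0.18) and EPCAM (mean of 0 against 0.628 CPM) were higher. The part of these markers in the result was not tested.

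None of the TIMPs passed the test. TIMP1 had 214 and 249 CPM after DMSO and 296 and 310 CPM after MK-0752 (log2FC 0.39, SE 0.16, adjusted p = 0.639), a level within the range of set 4 at 312 and 283 CPM. TIMP2 had 1154 and 1099 CPM against 1187 and 1223 CPM, and TIMP3 38.7 and 51.0 against 30.0 and 35.6 CPM. TIMP4 had 110 and 0 counts against 27 and 2. Per length, MMP1 passed from the first to the fifth place among these genes, at 105 ± 2.41 CPM per kb (SD, n = 2), behind TIMP1, TIMP2, MMP2 and MMP14. The summed MMP level was 650 ± 4.51 CPM per kb in set 2 and 417 ± 1.48 after MK-0752, and its ratio to the TIMP sum was 1.84 ± 0.0458 and 1.02 ± 0.0326 (SD, n = 2 each). MMP1 made up 60.3% ± 3.01 and 25.2% ± 0.490 of the MMP sum.

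**Figure D4:**
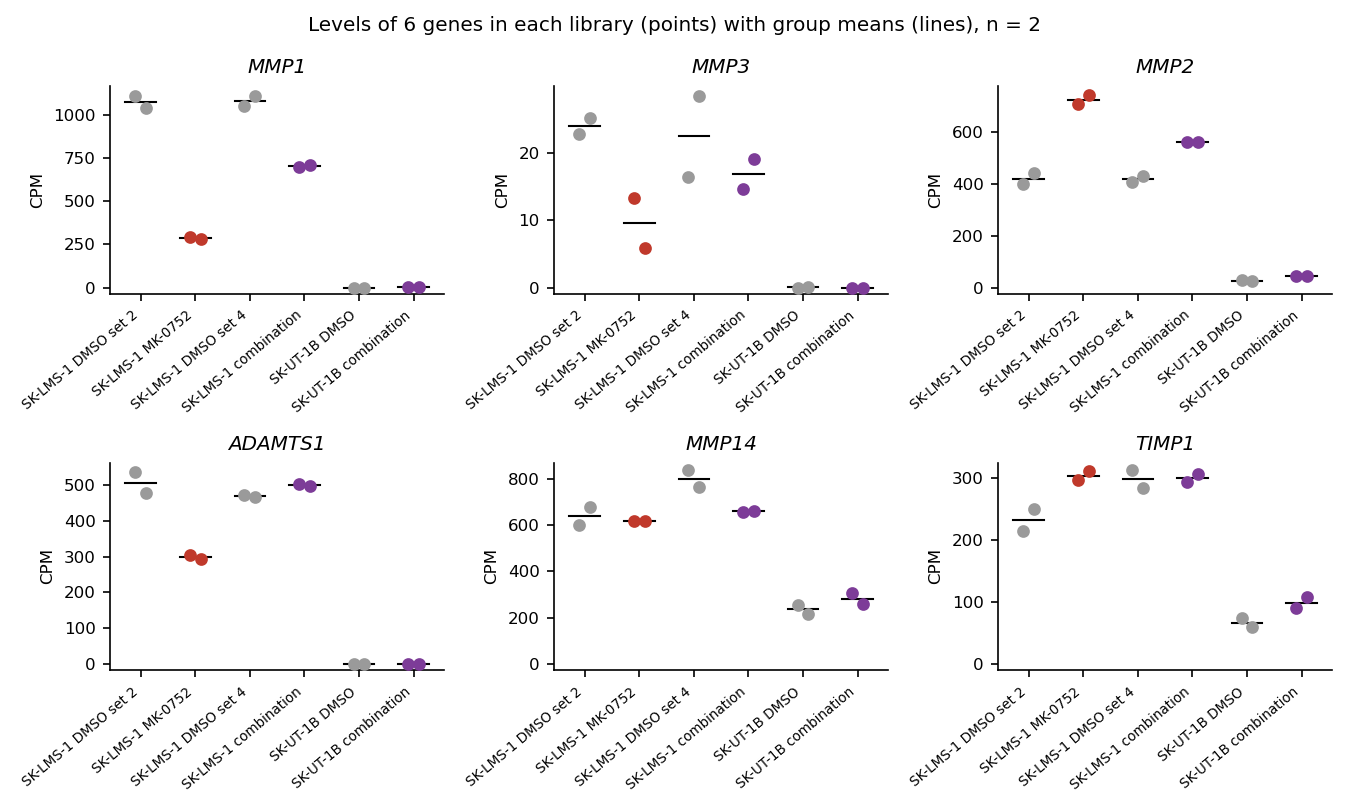
CPM of MMP1, MMP3, MMP2, ADAMTS1, MMP14 and TIMP1 in each of the 12 libraries (points) by group, with the mean of the group as a line. After MK-0752, MMP1 lies at 292 and 283 CPM and MMP2 at 707 and 741 CPM, outside the range of the 4 SK-LMS-1 DMSO libraries, and the combination libraries lie between for both genes.

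The fourth comparison asked what the combination did in SK-LMS-1, against DMSO set 4. None of the 39 genes was called by edgeR or by DESeq2, while 0.0237% of all genes were by edgeR and 0.342% by DESeq2. Those with an unadjusted p under 0.05 were 2 of the 39 (5.13%), against 4.33% of all genes. The median log2FC was 0.00 against 0.03 over all genes. MMP1 had 1052 and 1110 CPM after DMSO and 698 and 710 CPM after the combination (log2FC -0.62, adjusted p = 0.908). MMP2 had 405 and 431 CPM after DMSO and 561 and 559 CPM after the combination (log2FC 0.42, SE 0.13, adjusted p = 0.908). In both, the combination libraries stood apart from all 4 DMSO libraries, and the adjusted p was under 0.05 in 1 of the 10 alternatives that kept every library for each (0.00094 to 1 for MMP1, 0.0472 to 1 for MMP2). ADAMTS3 had 0.0811 and 0.985 CPM after DMSO and 4.36 and 0.862 CPM after the combination, an overlap (log2FC 2.23, SE 0.98, adjusted p = 0.908). This difference rests on single libraries, with a log2FC between 0.63 and 4.98 when 1 library was left out. The combination libraries lay above the DMSO libraries of set 4 for TIMP2, at 1190 and 1243 against 1128 and 1108 CPM. They also did for TIMP3, at 65.3 and 49.2 against 48.5 and 44.1 CPM, but overlapped set 2, which reached 51.0 CPM. For TIMP1 they overlapped set 4, at 293 and 306 against 312 and 283 CPM. TIMP4 had 22 and 5 counts against 0. The ratio of the MMP to the TIMP sum was 1.75 ± 0.108 after DMSO and 1.32 ± 0.0118 after the combination (SD, n = 2 each).

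The effects of MK-0752 and of the combination in SK-LMS-1 were compared directly, each against its own DMSO set, at concentrations of MK-0752 that differed. None of the 39 genes was called by edgeR or by DESeq2, against 0.0379% of all genes by edgeR and 0.364% by DESeq2, and 2 (5.13%) had an unadjusted p under 0.05, against 5.18% of all genes. The difference of the effects was -1.28 for MMP1 (SE 0.51, adjusted p = 0.911), 0.36 for MMP2 (adjusted p = 0.911) and -0.85 for ADAMTS1 (SE 0.20, adjusted p = 0.330), all log2FC. The adjusted p of this difference for MMP1 was under 0.05 in 2 of the 9 alternatives that kept every library (2.24e-06 to 1), and that for ADAMTS1 in 3 of 9 (0.00331 to 0.4996). ADAMTS1 had 503 and 497 CPM after the combination, within the range of the 4 DMSO libraries. The effect of the combination was also compared between the lines. None of the 39 genes was called by edgeR and 1 by DESeq2, against 0.232% of all genes by edgeR and 1.18% by DESeq2, and 9 (23.1%) had an unadjusted p under 0.05, against 7.67% of all genes. For MMP2 the effect in SK-LMS-1 minus that in SK-UT-1B was -0.31 (adjusted p = 0.743), and for MMP1 it was -8.25 (adjusted p = 0.305), a fitted value that rests on 0 counts in the SK-UT-1B DMSO libraries and whose adjusted p was under 0.05 in 3 of the 8 alternatives that kept every library (0.00113 to 0.529). The DMSO sets of SK-LMS-1 were compared last, where none of the 39 genes was called by edgeR or by DESeq2, against 0% of all genes by edgeR and 0.444% by DESeq2, and 4 (10.3%) had an unadjusted p under 0.05, against 5.67% of all genes.

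Genes that act on these enzymes or are cut by them were taken from lists. Of 17 listed activators, 12 were tested, and none was called in the treatment comparisons, against 0.559% (combination, SK-UT-1B), 0.251% (MK-0752) and 0.0237% (combination, SK-LMS-1) of all genes. In the DMSO libraries SK-LMS-1 exceeded SK-UT-1B in 6 of the 12 and was below it in 1, where 17% of all genes were higher and 14.1% lower. PLAU, the urokinase that generates plasmin, had a mean of 421 CPM in set 2 of SK-LMS-1 and 4.45 CPM in SK-UT-1B after DMSO. Of 16 listed inhibitors and clearance receptors other than the TIMPs, 15 were tested, with 1 called after MK-0752, against 0.251% of all genes, and another called for the combination in SK-UT-1B, against 0.559%. TFPI2, an inhibitor of plasmin and other serine proteases, fell after MK-0752 in SK-LMS-1 from 1412 and 1144 to 188 and 157 CPM (log2FC -2.89, SE 0.18, adjusted p = 3.13e-08). THBS1, a matrix protein that binds MMP2 and promotes its clearance, fell after the combination in SK-UT-1B from 4.05 and 4.19 to 0.246 and 0.461 CPM (log2FC -3.58, SE 0.25, adjusted p = 9.61e-08). Of these 15 genes, SK-LMS-1 had 8 at higher and 1 at lower levels after DMSO, against the same 17% and 14.1% of all genes.

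All 26 listed substrates were tested, and after DMSO SK-LMS-1 had 9 at higher and 9 at lower levels, against 17% and 14.1% of all genes. FN1, the fibronectin gene, had a mean of 7792 CPM in set 2 of SK-LMS-1 and 254 CPM in SK-UT-1B, while VCAN, the versican that ADAMTS1 cuts, had 193 and 2430 CPM. ACAN, the aggrecan gene, and COMP, the substrate of ADAMTS7 and ADAMTS12, had 0 in SK-LMS-1 set 2 and 5.83 and 5.29 CPM in SK-UT-1B. Among the 26 tested substrates, 1 was called in a treatment comparison, in SK-UT-1B after the combination, where 0.559% of all genes were. FBN2, the gene of fibrillin 2, fell after the combination in SK-UT-1B from 2.80 and 1.96 to 0.0273 and 0.0710 CPM (log2FC -5.56, SE 0.37, adjusted p = 8.27e-08). After MK-0752 in SK-LMS-1, FBN2 passed the adjusted p below the fold threshold, with 1038 and 1065 CPM after DMSO and 618 and 571 CPM after MK-0752 (log2FC -0.82, SE 0.15, adjusted p = 0.0148), as did COL1A1 and COL1A2. COL1A1 passed it in SK-UT-1B after the combination as well, with the opposite sign (log2FC -0.66). TFPI2, THBS1, FBN2 and the other genes of these lists were named after their values were seen. None of the 11 tested ADAM genes and none of the 5 tested astacin and pappalysin genes was called in a treatment comparison, against the 0.559%, 0.251% and 0.0237% of all genes given above.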

How the data were processed

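RNA was sequenced by the authors as stranded, ribosome-depleted libraries. Per the paper's methods and the submitters' processing notes, reads were trimmed with Trim Galore 0.3.7 and aligned to hg38 with STAR 2.7.9a. The authors deposited raw counts of reads per gene without normalization. Which annotation was used, how strand was treated in counting, and whether duplicates were removed were not given in the sources used here. Names, coordinates and exon lengths were taken from GENCODE release 44, in which 46 of the 52 genes had the same version of the identifier and 52 were found without the version. Every per-sample column was assigned to a sample.

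The 12 libraries formed 6 groups of 2 by cell line and exposure, with the SK-LMS-1 DMSO libraries split by the first number of their titles, which matched each SK-LMS-1 treatment to its DMSO set. In SK-UT-1B this number differed between the treatment (3) and DMSO (4). Tests used edgeR 4.0.16 in R 4.3.3 (TMM, filterByExpr, robust quasi-likelihood fit over all groups), with Benjamini-Hochberg adjustment over all 21114 genes tested. A gene was called where its adjusted p was under 0.05 and its log2FC was 1 or more in size. Levels per length divided CPM by the kb of the union of exons. A group with 0 counts was given the floor of 3 counts over the group, and the ratio of a group with 1 to 3 counts has an exact 95% interval. Intervals and bounds cover counting error only. The genes and lists were chosen with earlier results of these data known.

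Named genes were every TIMP, every gene called in a treatment or effect comparison, the 8 highest and 8 lowest called genes of each comparison of lines with a mean of at least 100 counts, the 10 highest genes per length in each line, the chromosome 11 cluster, and the 2 genes with the lowest p in each treatment comparison. Other genes were named for their class.

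Simulated data had 200 changed genes among 21114, each with a mean of at least 100 counts over all 12 libraries of both lines. This leaves the recovery of genes below that mean unknown. A changed gene could also have few counts in the line compared. For the MK-0752 comparison, 70.8% of 4-fold and 68.1% of 2.5-fold changes were recovered and 8.55% of calls were not changed genes. For the SK-UT-1B combination these were 75%, 51.8% and 6.77%, and in each simulation 1 gene was called between unchanged groups. Alternatives were DESeq2 1.42.0, DESeq2's size factors in edgeR, filters of 1 count in total or of 50 counts on average, fits restricted to the libraries compared, a control made of all 4 SK-LMS-1 DMSO libraries, a replicate block and each library left out. A fit without the robust option, only the 8 SK-LMS-1 libraries, and the other DMSO set as control were chosen after seeing the data.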

Additional observations from a re-analysis of the deposited data

Results flagged for a closer look

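In 10 of the 43 genes with a count in the 4 SK-LMS-1 DMSO libraries, a single library stood apart by Dixon's ratio, the gap to the nearest library divided by the range, above the 95% critical value for 4 samples. Chance gives such a value in about 1 in 20 groups, but a gene with 0 counts in 3 of the libraries has a ratio of 1.0 by construction, which held for 6 of the 10. Over all genes with a count, 27.5% were past the critical value, against 23.3% here. Among genes with a count in each of the 4 libraries these were 5.93% of all genes and 3 of 29 (10.3%) here. Among genes with substantial counts, ADAMTS1 had a ratio of 0.849 (536 CPM in library 2-1 against 466 to 477 in the others), ADAMTS15 of 0.925 (7.30 CPM in library 4-1 against 5.67 to 5.80) and MMP11 of 0.875 (5.54 CPM in library 2-3 against 9.899 to 10.5). TIMP4 had a ratio of 1.0, with 110 counts in library 2-1 and 0 in the others. The 5 genes ADAMTS7, ADAMTS20, ADAMTSL2, MMP25 and MMP28 also had a ratio of 1.0, with 2, 9, 7, 6 and 1 counts in a single library. MMP12 had a ratio of 0.887, with 7 counts in library 2-3 and 1 in library 2-1. Library 2-1 is a control of the MK-0752 comparison, where ADAMTS1 had a log2FC of -0.76 with all libraries and -0.67 without it.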

How the results depend on the processing

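The counts of called genes between the lines kept within 1.5 times of their values under every alternative, at 25 to 31 genes after DMSO and 24 to 29 after the combination, against 21.8% to 42.9% and 18.4% to 38.2% of all genes. The 29 called pairs of a named gene and a comparison were all between the lines and kept their sign under every alternative. Many were named for the size of their log2FC, some with 0 counts in SK-UT-1B, so a change of sign was unlikely from the start. Of the 86 pairs that were not called, 31 changed sign at least once, among them MMP17 after DMSO (log2FC -0.069 without SK-LMS-1 library 2-3, and up to 0.22 without another). The counts of 0 in the other comparisons moved. In SK-UT-1B after the combination, 1 gene was called by DESeq2 and without the robust option (MMP1), 2 without a filter (MMP1, ADAMTS15), and 2 to 4 with a library left out, MMP1 each time. The shares of all genes called in these fits were 2.88%, 0.426%, 1.4% and 1.35% to 4.3%, and those of the genes described here 2.7%, 2.56%, 4.44% and 4.88% to 10%. After MK-0752, 2 genes were called by DESeq2 and without a filter (MMP1, ADAMTS18), 1 with only the libraries of the comparison and without the robust option (MMP1), 2 with only the 8 SK-LMS-1 libraries (MMP1, MMP3), and 1 to 2 with a library left out, MMP1 each time, where 1.09%, 0.582%, 0.59%, 0.18%, 0.693% and 0.472% to 1.09% of all genes were called. In SK-LMS-1 after the combination and between the DMSO sets, 0 to 1 was called with a library left out, against 0.253% to 1.01% and 0.321% to 1.33% of all genes. ADAMTS2 was called between the sets without library 4-1 of set 4, and ADAMTS3 without library 4-2. For the effect of the combination between the lines, 1 gene was called by DESeq2 and without the robust option (MMP1), 2 without a filter and 1 to 3 with a library left out, against 1.18%, 0.142%, 1.01% and 1.14% to 3.37% of all genes. For the effect of MK-0752 against that of the combination, 1 was called with only the libraries of the comparison and with only the 8 SK-LMS-1 libraries (MMP1), and 1 to 2 with a library left out, against 0.144% in both and 0.285% to 0.967% of all genes. The cause of these shifts was not tested.

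Between the lines after DMSO, ADAMTS2 was called in 4 of 6 alternatives with all libraries, MMP24 in 3, MMP10 in 2 and MMP9 and ADAMTS10 in 1 each. A fit with a library left out takes the spread of the lone library from the other groups. The replicate block called 0 of the 39 genes in the 3 comparisons it could be fitted for. Of all genes, it called 0.00947% for the combination in SK-LMS-1 and 0.152% for its effect between the lines. For the effect of MK-0752 against that of the combination, this share was 0.0332%. In SK-LMS-1 DMSO set 4 and the combination, the deviations of the libraries numbered 1 from their group means had a correlation of -0.0113 over the tested genes. With 2 libraries a group, the libraries numbered 2 deviate as their mirror image and add nothing. The check therefore cannot decide whether the libraries were paired. The other treatment comparisons shared too few numbers for it, and the numbers were not taken as pairs. With the length of the longest transcript, 10 of the 10 leading genes per length were the same in both lines after DMSO. Their order was not the same. In SK-LMS-1, TIMP2 then came before TIMP1 and ADAMTS6 before MMP3. In SK-UT-1B, MMP17 came before MMP2 and ADAMTS7 before ADAMTS3. The sums and ratios of MMPs and TIMPs were not taken with this length. With 2 libraries a group, a change under 2-fold or in genes with few counts can stay undetected. Larger changes can be missed too. Of simulated 4-fold changes at a mean of at least 100 counts over all 12 libraries, 70.8% (MK-0752) and 75% (SK-UT-1B combination) were recovered. That mean covered both lines, so some of these genes can have had few counts in the line compared. The recovery of genes with at least 100 counts in that line was not taken.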
